A study of Mus musculus with 3 samples.

Results

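The 9 genes described here are Gfap, Aqp4, Gja1, S100b, Aldoc and Sparcl1, which are known from astrocytes, and the metallothionein genes Mt1, Mt2 and Mt3. They were taken by gene symbol, without regard to their values, from 19621 symbols counted in the files, and all 9 were found. Transcripts with a poly(A) tail were read on arrays of densely packed capture spots under 3 coronal sections, cut through the main olfactory bulb of C57BL/6J mice aged 12 weeks, with no treatment or mutation in the labels. Each section is 1 sample, and the labels do not say which animal it came from. The p-values therefore measure only how differences between regions vary among these sections. The deposited annotation assigns spots to 9 regions, given here from outside to inside: the olfactory nerve layer (ONL), glomerular layer (GL), external plexiform layer (EPL), mitral layer (M/T), internal plexiform layer (IPL), granule cell layer in an external and an internal part (GCL-E, GCL-I), ependymal cell zone (E) and rostral migratory system (RMS). The ONL, GL and EPL are called the outer layers below, and the other 6 the inner regions, a division made after the members' values had been seen. The sources used here do not say how the regions were drawn.

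Astrocytes line synapses and blood vessels with fine processes, take up transmitter and potassium, and are joined into a network by gap junctions. In the olfactory bulb they surround glomeruli and fill the EPL, where the dendrites of mitral and tufted cells meet those of granule cells, while olfactory ensheathing glia wrap the sensory axons of the nerve layer. Metallothioneins are small, cysteine-rich proteins that bind zinc and copper. Mt1 and Mt2 are made by many cell types, astrocytes prominent among them in brain, and are induced by metals, glucocorticoids and stress. Mt3 is the form enriched in brain and is found in astrocytes and in some neurons.

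Mt3, Mt2 and Mt1 lie in that order on the plus strand of mouse chromosome 8 (mm10), within a cluster that begins with Mt4 and spans 43131 bases. Mt3 is at chr8:94152607-94154146, Mt2 at chr8:94172664-94173568 and Mt1 at chr8:94179082-94180327, and 5513 bases separate Mt2 from Mt1. Their promoters are shown because the values below set these neighbours side by side. Each window holds 300 bases, 250 before and 50 after a gene start in the RefSeq table of build GRCm38.p6, read 5′ to 3′ on the plus strand. The Mt1 window is chr8:94178839-94179138, the Mt2 window chr8:94172368-94172667 and the Mt3 window chr8:94152357-94152656. Capitals mark TGCGCNC or TGCACNC on either strand, the core of the metal response element through which the zinc-sensing factor MTF1 acts on mouse metallothionein promoters.
Mt1: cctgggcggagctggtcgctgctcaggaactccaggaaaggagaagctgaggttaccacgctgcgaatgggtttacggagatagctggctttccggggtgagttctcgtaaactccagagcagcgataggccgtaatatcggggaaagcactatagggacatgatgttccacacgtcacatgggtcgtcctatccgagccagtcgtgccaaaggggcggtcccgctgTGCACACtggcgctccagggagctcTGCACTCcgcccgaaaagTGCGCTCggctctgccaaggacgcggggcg
Mt2: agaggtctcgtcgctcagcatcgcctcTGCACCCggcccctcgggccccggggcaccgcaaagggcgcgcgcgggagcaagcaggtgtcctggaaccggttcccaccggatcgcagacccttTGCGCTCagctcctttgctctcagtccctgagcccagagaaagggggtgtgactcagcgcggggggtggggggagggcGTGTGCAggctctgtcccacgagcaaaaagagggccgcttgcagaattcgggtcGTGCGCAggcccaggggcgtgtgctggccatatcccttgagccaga
Mt3: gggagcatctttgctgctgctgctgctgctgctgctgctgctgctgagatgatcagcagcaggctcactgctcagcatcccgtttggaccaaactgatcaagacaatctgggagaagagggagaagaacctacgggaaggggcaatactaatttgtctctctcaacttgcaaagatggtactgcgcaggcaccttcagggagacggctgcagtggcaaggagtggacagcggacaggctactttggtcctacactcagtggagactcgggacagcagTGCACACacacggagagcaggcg
The Mt1 window held 3 matches, the Mt2 window 4 and the Mt3 window 1, and no match overlapped another. Relative to the gene start, the Mt1 matches began at positions -23, 2 and 20. Those of Mt2 began at -223, -128, -50 and 4, and that of Mt3 at 27, so some lie after the start. Bases outside the windows were not searched, so these are not counts for a whole promoter. Of 32851 promoter windows of this length in the table, 25.7% held at least 1 match, 1.97% at least 3 and 0.517% at least 4. Taken separately, TGCGCNC was found in 15.4% of the windows and TGCACNC in 12.6%. The windows of Gfap, Gja1, S100b and Aldoc held 0 matches, and Aqp4 and Sparcl1 were not searched. A match describes these letters and is not a measured binding site.

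The sections held 344218, 644694 and 501870 counts in annotated regions, of which the 9 genes took 1668, 3275 and 2432. Adding up the counts of each region in each section gave 27 sums, and levels are given relative to the total of a sum (CPM), in the order of sections 1, 2 and 3. The RMS sums held 16285, 5162 and 1456 counts, so that 3 counts, taken here as the limit that a count of 0 allows, correspond to 184, 581 and 2060.4 CPM there. Such limits, and the exact Poisson 95% intervals given below, cover counting error only. The 27 sums were compared with edgeR's quasi-likelihood test with section as a block, over the 1996 genes that passed a filter on low counts, and p-values were adjusted by the Benjamini-Hochberg method over those genes. Of the 9 genes, 8 were tested. Mt2 missed the filter with 197 counts, and Gfap passed it with 168.

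The astrocyte genes other than Gfap were higher in outer layers of the bulb than in the other regions. Of the metallothioneins, Mt3 passed the test in the EPL alone, Mt1 passed in no region and Mt2 was not tested. Each region was set against the mean of the other 8, and 14 of 72 member and region tests passed an adjusted p of 0.05, all of them higher in an outer layer. Across all tested genes 4.35% of such tests passed. In the EPL 6 of the 8 tested genes were higher, where 10.8% of all tested genes were. In the GL 4 of 8 were higher, against 8.77% of all genes, and in the ONL 4 of 8, against 5.96%. The median log2 fold change of the 8 genes was 0.73 in the EPL, 0.65 in the GL and 0.55 in the ONL, and that of all tested genes 0.11, 0.13 and 0.08 in the same layers. In the 6 inner regions 0 of 48 tests passed in edgeR or in DESeq2, with 6 at an unadjusted p under 0.05 in each tool, and 1.57% of the tests of all genes passed there in edgeR. In place of the 14 calls, DESeq2 made 10, and edgeR with library sizes alone instead of TMM scaling made 10. In each, 4 genes were called higher in the EPL in place of 6. A sum over a region cannot tell fewer cells of a type apart from less RNA per cell. The calls depend on taking out differences between whole sections, since 0 of the 14 remained without the section block, although the fold changes moved little, for example 0.96 for Sparcl1 and 1.47 for Gja1 in the EPL without the block, against 0.94 and 1.45 with it. With section 2 left out 5 remained and with section 3 left out 7, while 13 remained without section 1. The 4 calls kept whichever section was left out were Aldoc and Sparcl1 in the EPL and Aqp4 and Sparcl1 in the GL. Gja1 missed the filter on low counts without section 2, so its calls could not be kept there. In the 2 other fits it passed in the EPL and the ONL (adjusted p up to 0.00216 and 0.00159).

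**Figure D1:**
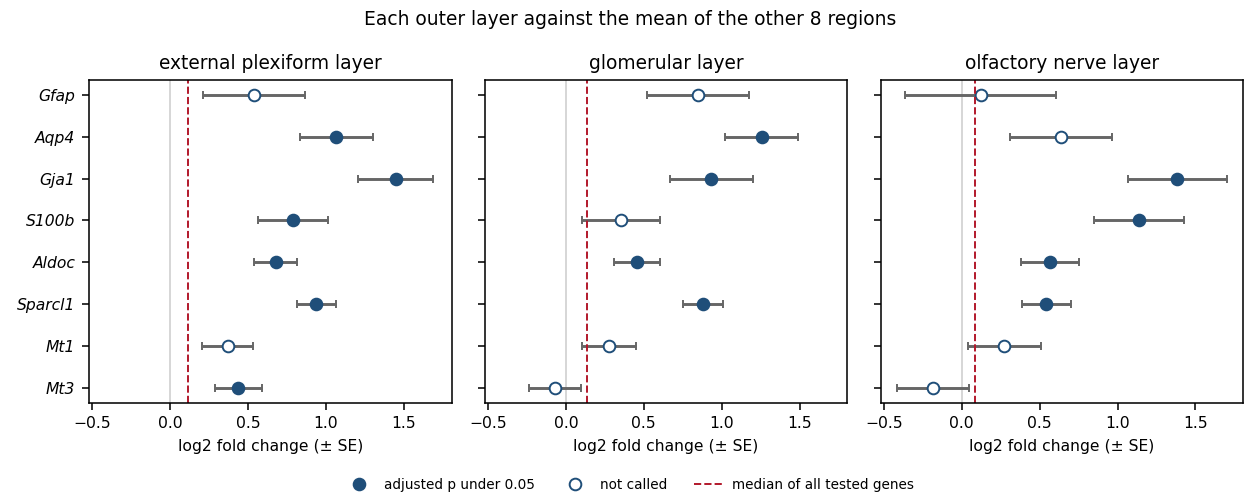
Log2 fold change of each of the 8 tested genes in the EPL, GL and ONL against the mean of the other 8 regions, with bars of 1 SE (edgeR, 3 sections), filled symbols for an adjusted p under 0.05 and a red dashed line at the median of the 1996 tested genes. Gja1, Aqp4, Sparcl1 and S100b stand farthest to the right in the EPL, while Mt1 and Mt3 lie near the line in the GL and ONL.

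Sparcl1 encodes a secreted matricellular protein, also called hevin, that astrocytes release and that promotes synapse formation (chr5 of mm10, 104079111 to 104113733, minus strand). With 3111 counts it was the most counted of the 9. It measured 1417, 2236 and 2185 CPM in the ONL, 2365, 2886 and 2413 CPM in the GL and 1775, 2917 and 3009 CPM in the EPL. In the 18 sums of inner regions its lowest, median and highest values were 645, 1322 and 2292 CPM. The ranges overlapped across sections, but within a section an outer layer exceeded an inner region in 51 of 54 pairs. The median tested gene did so in 24.5 of 54. Such pair counts, here and for the other genes, describe a division made after the members' values had been seen. Sparcl1 was higher in the EPL (log2 fold change 0.94 ± 0.12 (SE, n = 3 sections), adjusted p = 2.29e-12), in the GL (0.88 ± 0.13, adjusted p = 1.17e-09) and in the ONL (0.54 ± 0.16, adjusted p = 0.0108). With library sizes alone in place of TMM scaling, which lowers the median of all genes by 0.21 in the ONL, 0.16 in the GL and 0.18 in the EPL on the log2 scale, the ONL value was 0.32 and no longer passed. Without section 2 or section 3 the ONL call was lost as well (adjusted p up to 0.425). Its order of mean levels was EPL, GL, ONL, IPL, M/T, E, GCL-I, RMS and GCL-E. The mean was 2567 ± 688 CPM (SD, n = 3) at the top, in the EPL, and 1065 ± 432 CPM at the bottom, in the GCL-E.

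Gja1 encodes connexin 43, the main gap junction protein between astrocytes (chr10 of mm10, 56377330 to 56402513, plus strand). It had 329 counts. Its levels were 193, 439 and 237 CPM in the ONL, 204, 278 and 242 CPM in the GL and 165, 356 and 407 CPM in the EPL. All 9 values in outer layers were at or above 165 CPM. The 18 inner sums ran from 0 over a median of 109.9 to 237 CPM, and 3 of them had no count: M/T and GCL-E in section 1, where 3 counts would be 190.3 and 276 CPM, and RMS in section 3. Within sections an outer layer exceeded an inner region in 52 of 54 pairs. The fold change was 1.45 ± 0.24, adjusted p = 7.58e-08 in the EPL, 1.38 ± 0.32, adjusted p = 0.000359 in the ONL and 0.93 ± 0.27, adjusted p = 0.00819 in the GL (log2, SE). Without section 2 the gene missed the filter on low counts and was not tested, and without section 3 the GL value no longer passed (adjusted p = 0.0624). From high to low, the order was EPL, ONL, GL, IPL, RMS, E, GCL-I, M/T and GCL-E, with means of 309 ± 127 CPM in the EPL and 29.6 ± 25.8 CPM in the GCL-E (SD, n = 3). Short stretches of Gja1 are near identical to transcripts of Glcci1 and Slc38a6, which had 38 and 21 counts in all, and how the authors' counting treated reads from such stretches is not stated.

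Aqp4 encodes the water channel aquaporin 4, which is concentrated on astrocyte endfeet at blood vessels (chr18 of mm10, 15389496 to 15410982, minus strand). Its 369 counts gave 64.4, 368 and 164 CPM in the ONL, 122, 430.3 and 408 CPM in the GL and 68.8, 389 and 367 CPM in the EPL. Section 1 was the lowest in each of these layers. Over the 18 inner sums the lowest, median and highest levels were 0, 121 and 687 CPM. The highest, in the RMS of section 3, rests on 1 count, with an interval of 17.4 to 3827 CPM. Aqp4 was higher in the GL (1.26 ± 0.23, adjusted p = 3.54e-06) and in the EPL (1.07 ± 0.23, adjusted p = 0.000117) and did not pass in the ONL (0.64 ± 0.33, adjusted p = 0.301). Without section 2 the ONL value was -0.022 and that in the EPL no longer passed (adjusted p = 0.0535). Within sections an outer layer exceeded an inner region in 45 of 54 pairs. Mean levels ran GL, RMS, EPL, ONL, IPL, GCL-I, E, M/T and GCL-E, between 320.3 ± 172 CPM in the GL and 118 ± 42.4 CPM in the GCL-E.

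Aldoc encodes aldolase C, the brain form of a glycolytic enzyme and a marker of astrocytes in forebrain (chr11 of mm10, 78322968 to 78327781, plus strand). It had 1278 counts. In the ONL it measured 1095, 1089.7 and 710.2 CPM, in the GL 1448, 847 and 741 CPM and in the EPL 1197, 1056 and 942 CPM. Inner sums had a lowest, median and highest level of 0, 718 and 1198 CPM, the 0 being the RMS of section 3. An outer layer exceeded an inner region of its section in 49 of 54 pairs. The gene was higher in the EPL (0.68 ± 0.14, adjusted p = 3.62e-05), in the ONL (0.56 ± 0.19, adjusted p = 0.0389) and in the GL (0.46 ± 0.15, adjusted p = 0.0255). The EPL call held with each section left out, with adjusted p up to 0.0271. That in the GL was lost whichever section was left out (adjusted p 0.105 to 0.132), and that in the ONL was lost without section 2 or section 3 (up to 0.77). The GL call was also lost in DESeq2 (0.41, adjusted p = 0.0845) and with library sizes alone (0.32, adjusted p = 0.178). With library sizes alone the ONL call was lost too (0.36, adjusted p = 0.242). The order was EPL, GL, ONL, IPL, GCL-E, E, GCL-I, M/T and RMS, with 1065 ± 128 CPM in the EPL and 545 ± 474 CPM in the RMS (SD, n = 3).

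S100b encodes a calcium-binding protein that is released by astrocytes and is also known from oligodendrocyte lineage cells and ensheathing glia (chr10 of mm10, 76253853 to 76261159, plus strand). It had 342 counts and measured 258, 325 and 419 CPM in the ONL, 183, 265 and 197 CPM in the GL and 220.1, 307 and 303 CPM in the EPL. The inner sums had 0, 164 and 317 CPM as their lowest, median and highest values, so the ranges overlapped. S100b was higher in the ONL (1.14 ± 0.29, adjusted p = 0.00214) and in the EPL (0.79 ± 0.23, adjusted p = 0.00657), and did not pass in the GL (0.35 ± 0.25, adjusted p = 0.429). The ONL headed its order, followed by EPL, GL, M/T, E, GCL-I, GCL-E, RMS and IPL, with 334 ± 80.9 CPM in the ONL and 100.2 ± 141 CPM in the IPL. The IPL mean joins a sum without counts in section 1, 261 CPM in section 2 and 39.5 CPM, from 1 count, in section 3. Leaving out section 2 or section 3 ended the EPL call (adjusted p up to 0.141), and leaving out section 3 ended that in the ONL (0.234). The EPL call was also lost in DESeq2 (0.72, adjusted p = 0.0941) and with library sizes alone (0.60, adjusted p = 0.0689).

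Gfap encodes the intermediate filament protein of astrocytes, whose level rises in reactive cells (chr11 of mm10, 102887336 to 102900912, minus strand). It passed in 0 of 9 regions, with 1 at an unadjusted p under 0.05 in edgeR and 1 in DESeq2. Its levels were 258, 70.8 and 72.8 CPM in the ONL, 122, 172 and 151 CPM in the GL and 165, 126 and 104 CPM in the EPL. The 18 inner sums held 0, 105 and 687 CPM (lowest, median, highest). The highest was again the RMS of section 3, from 1 count, and the groups overlapped throughout. The largest fold change in an outer layer was in the GL (0.85 ± 0.33, adjusted p = 0.0765). The GL lay above the mean CPM of the other regions in 1 of 3 sections, and in section 3 that mean includes the 687 CPM of the RMS. Within sections an outer layer exceeded an inner region in 35 of 54 pairs, and in 34 of 45 without the RMS. The upper quartiles of all tested genes were 32 and 26. With no filter on low counts the GL passed (1.12, adjusted p = 0.0285). In that setting the 4 genes called in the GL rose there too. Sparcl1 went from 0.88 to 1.16, Gja1 from 0.93 to 1.22, Aqp4 from 1.26 to 1.55 and Aldoc from 0.46 to 0.73. The order of Gfap was RMS, GL, ONL, EPL, IPL, M/T, GCL-I, E and GCL-E. The mean was 149 CPM in the GL and 77.1 ± 95.7 CPM in the GCL-E (SD, n = 3), and with the filter no difference between its regions passed at this depth.

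**Figure D2:**
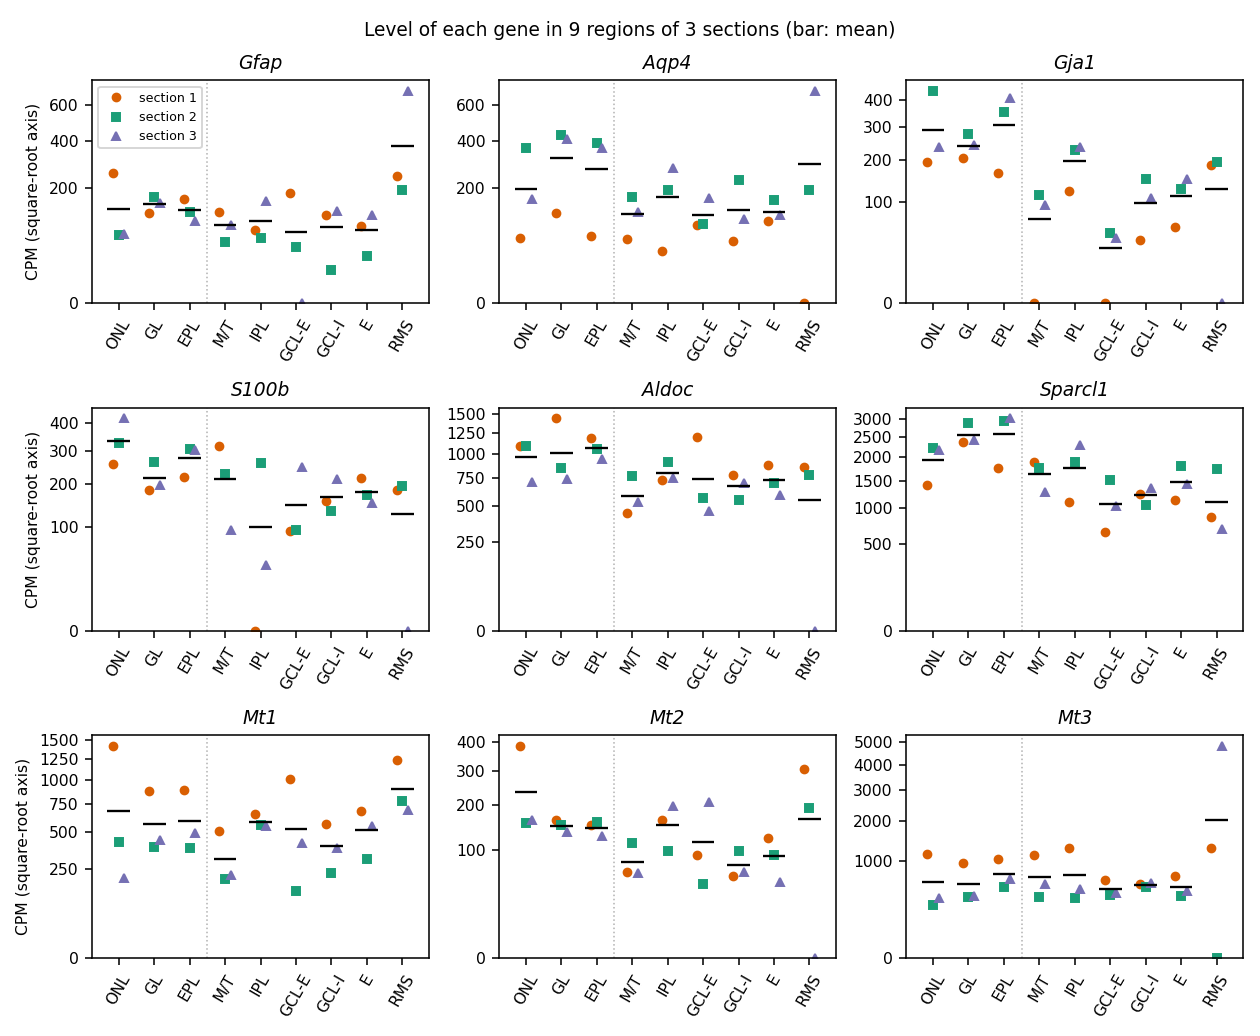
CPM of each of the 9 genes by region, from outside to inside, on a square-root axis, with 1 point per section and a bar at the mean of 3 sections, and a dotted line between the EPL and the M/T. The means of Gja1, Sparcl1 and Aldoc step down at the dotted line, and Mt1 and Mt3 are highest in section 1 in most regions.

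The metallothionein genes were spread over all regions. Mt1 had 719 counts and measured 1417, 425 and 200.3 CPM in the ONL, 877, 391 and 439 CPM in the GL and 894, 383 and 495 CPM in the EPL. Its inner sums had a lowest, median and highest level of 141, 553 and 1228 CPM, which covers nearly the same range. The fold change was 0.37 ± 0.16, adjusted p = 0.145 in the EPL, 0.28 ± 0.17, adjusted p = 0.355 in the GL and 0.27 ± 0.23, adjusted p = 0.618 in the ONL. Mt1 passed in 0 of 9 regions, with 3 at an unadjusted p under 0.05 in edgeR and 0 adjusted calls in DESeq2, where 2 were under that limit. With spots near a border between regions left out, where the median of all tested genes was 0.66 in the EPL and 0.65 in the GL, it passed in the EPL (1.62, adjusted p = 0.000752) and the GL (1.43, adjusted p = 0.00968), and with no filter on low counts in the EPL (0.71, adjusted p = 0.00598). With no filter the 6 genes called in the EPL rose there too, for example Sparcl1 from 0.94 to 1.28. Without the RMS sums Mt1 passed in the EPL as well (0.44, adjusted p = 0.0469). Lowest in mean was the M/T, at 507, 198 and 219 CPM, below the GL and the EPL of its own section in 3 of 3. The order was RMS, ONL, EPL, IPL, GL, GCL-E, E, GCL-I and M/T, with 897 ± 290.5 CPM in the RMS and 308 ± 173 CPM in the M/T.

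Mt3, with 862 counts, measured 1159, 297 and 382 CPM in the ONL, 958, 404 and 408 CPM in the GL and 1045, 536 and 662 CPM in the EPL. Over the inner sums the lowest, median and highest values were 0, 564 and 4808 CPM. Both ends come from the RMS, at 0 counts of 5162 in section 2 and 7 counts of 1456 in section 3, an interval of 1933 to 9906 CPM. Mt3 passed in the EPL (0.44 ± 0.15, adjusted p = 0.0341). Its mean CPM there, 748 ± 265, lay below the 788 ± 373 of the other regions, which include the RMS at 2032 ± 2488. Mt3 in the EPL was above their mean in 2 of 3 sections. The call was lost without section 2, without section 3, in DESeq2 (0.36, adjusted p = 0.301), with RLE scaling (0.37, adjusted p = 0.0892) and with library sizes alone. It held without the RMS (0.49, adjusted p = 0.00864), with no filter on low counts (0.78, adjusted p = 0.000418) and without section 1 (0.52, adjusted p = 0.0283). Joined by name it held too (0.43, adjusted p = 0.0324). So it did with border spots left out (0.77, adjusted p = 0.00509), where the median of all tested genes was 0.66. In the GL and the ONL the values were -0.07 ± 0.17, adjusted p = 0.889, and -0.19 ± 0.23, adjusted p = 0.753. Within sections an outer layer exceeded an inner region in 24 of 54 pairs for Mt3, close to the 24.5 of the median tested gene, and in 32 of 54 for Mt1, the upper quartile of all tested genes being 32. Without the RMS it was 31 of 45 for Mt1, above the upper quartile of 26, and 21 of 45 for Mt3, where the median was 19. The order of Mt3 was RMS, EPL, IPL, M/T, ONL, GL, GCL-I, E and GCL-E.

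Mt2 was too sparse for the test and is given by its values. It measured 386, 156 and 164 CPM in the ONL, 163, 152 and 136 CPM in the GL and 151, 159 and 128 CPM in the EPL. The inner sums ran from 0 to 307 CPM, and an outer layer exceeded an inner region of its section in 42 of 54 pairs. GL and EPL varied little, with 150.5 ± 13.6 and 146 ± 16.2 CPM (SD, n = 3), whereas the ONL of section 1 stood above all other sums, on 6 counts with an interval of 142 to 841 CPM. The order of means was ONL, RMS, IPL, GL, EPL, GCL-E, E, M/T and GCL-I, the last at 73.8 ± 22.0 CPM. The antisense transcript Gm45774 is identical to Mt2 over 212 bases and had 6 counts.

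All 36 pairs of regions were then tested for the 8 genes. Of 288 tests 53 passed, while 3.94% of the tests of all genes did. Each of the 53 was a higher level in the ONL, GL or EPL than in an inner region. That division was made after the members' values had been seen, so this shared direction is a description and not a test. Between the outer layers 0 of 24 tests passed, with 4 at an unadjusted p under 0.05 in edgeR, and 0 adjusted and 1 unadjusted in DESeq2, and 2.35% of such tests passed in edgeR for all genes. Among the inner regions 0 of 120 passed in either tool, with 12 at an unadjusted p under 0.05 in each, where 0.668% of the edgeR tests of all genes passed. Against outer layers 6.93% of all tests passed. DESeq2 made 40 calls, again all outer over inner. Of the 2830 pairs that passed for all tested genes, 59.4% were outer over inner, a share that fell to 35.7% with library sizes alone, where the members kept that direction in all of their 35 calls.

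Sparcl1 passed in 16 of its 18 pairs of outer layer and inner region, Gja1 in 12, Aqp4 and Aldoc in 8 each, S100b in 5, Mt1 in 3, Mt3 in 1 and Gfap in 0. Gfap had 4 pairs at an unadjusted p under 0.05 in edgeR and 4 in DESeq2, with 0 adjusted calls in both. For Gja1 the 12 pairs were each outer layer against the M/T, GCL-E, GCL-I and E. Aqp4 passed in the GL and the EPL against those same 4 regions, and in the ONL against none. S100b passed in the ONL against the IPL, GCL-I and E, and in the EPL against the IPL and GCL-I. The 3 pairs of Mt1 were the EPL over the M/T (1.15 ± 0.34, adjusted p = 0.0231), the EPL over the GCL-I (0.76 ± 0.25, adjusted p = 0.0199) and the GL over the M/T (1.07 ± 0.34, adjusted p = 0.0436). The pair of Mt3 was the EPL over the ependymal cell zone (0.63 ± 0.20, adjusted p = 0.0216). These 4 metallothionein calls were lost with any 1 section left out. Calls fell to 11 without section 2 and 22 without section 3, and 44 were made without section 1. Over all tested genes the 2830 calls fell to 729 without section 2 and 1215 without section 3, and 2849 were made without section 1. The 8 pairs kept whichever section was left out were all of Sparcl1, in the EPL and the GL against the GCL-E, GCL-I, E and RMS. Gja1 was not tested without section 2, so its 12 pairs could not be among them.

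**Figure D3:**
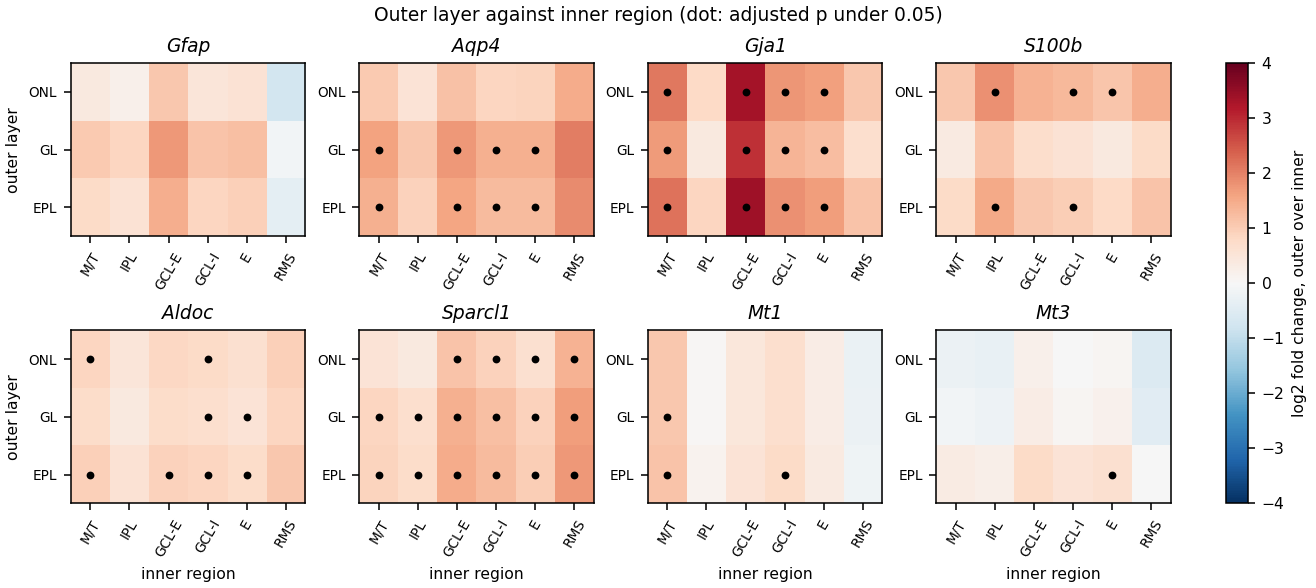
Log2 fold change of each outer layer (rows: ONL, GL, EPL) over each inner region (columns) for the 8 tested genes, with a dot where the adjusted p was under 0.05. The Sparcl1 panel holds 16 dots and the Gja1 panel 12, and the panels of Gfap, Mt1 and Mt3 hold 0, 3 and 1.

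The M/T is the first inner region below the EPL. In the EPL 3.01% of all tested genes were higher than in the M/T, and 5 of the 8 genes were. The log2 difference of EPL over M/T was 2.16 ± 0.49, adjusted p = 0.000796 for Gja1, which had no count in the M/T of section 1, 1.44 ± 0.44, adjusted p = 0.0368 for Aqp4 and 1.15 ± 0.34, adjusted p = 0.0231 for Mt1. For Aldoc it was 0.94 ± 0.25, adjusted p = 0.00779 and for Sparcl1 0.90 ± 0.20, adjusted p = 0.000565. Sparcl1 was higher in the EPL in 2 of 3 sections, since section 1 had 1775 CPM in the EPL and 1903 CPM in the M/T. The 3 genes that did not pass were Gfap (0.76 ± 0.62, adjusted p = 0.663), S100b (0.75 ± 0.40, adjusted p = 0.419) and Mt3 (0.33 ± 0.26, adjusted p = 0.65). Each of the 5 calls was lost with at least 1 section left out. Along the order of mean levels, 0 of the 64 pairs of neighbours among the tested genes passed (lowest adjusted p 0.183), with 2 at an unadjusted p under 0.05 in edgeR and 1 in DESeq2, so no neighbours in the orders given above differed beyond their spread in this test.

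Pooling the 3 outer layers and the 6 inner regions of each section gives values with more counts behind them, as a description without a test. Gja1 had 277 ± 83.8 CPM in the outer layers and 109 ± 40.3 CPM in the inner regions (SD, n = 3), with a log2 ratio of 1.28 to 1.54 over the sections. The ratio of Sparcl1 was 0.73 to 0.85 and that of Aldoc 0.43 to 0.63, both narrow. Mt2, untested above, had 159 ± 22.4 CPM outside and 104 ± 14.7 CPM inside, a log2 ratio of 0.53 to 0.70. Aqp4 ranged more widely, 0.27 to 1.24, with section 1 lowest, as did Gfap, 0.10 to 1.68. S100b ranged over 211, 294 and 278 CPM outside and 174, 175 and 153 CPM inside. For Mt1 and Mt3 the ratio changed sign between sections (-0.06 to 0.44 and -0.16 to 0.31). The median tested gene stood at -0.05, -0.21 and -0.20 in sections 1, 2 and 3.

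**Figure D4:**
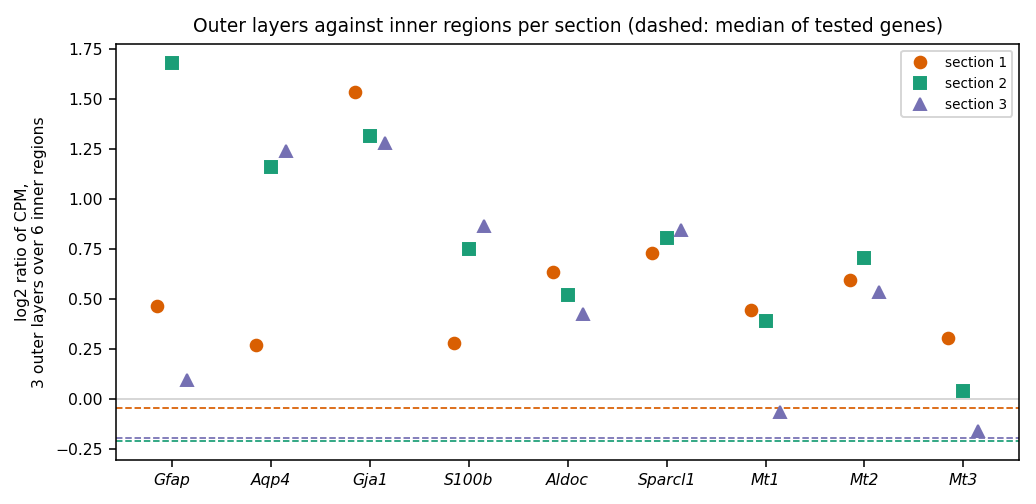
Log2 ratio of CPM in the 3 outer layers over CPM in the 6 inner regions for each of the 9 genes, with 1 point per section and dashed lines at the median of the tested genes in each section. Points of Gja1, Sparcl1, Aldoc and Mt2 stand above 0 and close together, and those of Mt1 and Mt3 lie on both sides of 0.

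Section 1 stood apart in the level of several of the genes. Over whole sections Mt1 had 796, 358 and 426 CPM and Mt3 909, 441 and 528 CPM in sections 1, 2 and 3, and section 1 was the highest in both. Aqp4 had 78.4, 318 and 273 CPM, Gja1 110.4, 265 and 239 CPM and Sparcl1 1482, 2342 and 2174 CPM, and here section 1 was the lowest. Levels of Mt2 (145, 133 and 122 CPM), Gfap (134, 99.3 and 116 CPM) and S100b (189, 249.7 and 231 CPM) were closer together, and Aldoc had 1002, 873 and 737 CPM. The outer layers held 39.9% of the counts of section 1, 62.7% of section 2 and 62.3% of section 3, so levels over whole sections also differ with the regions they contain. Compared region by region, section 1 was the highest of the 3 in 9 of 9 regions for Mt1, 7 for Mt3 and 7 for Aldoc, and the lowest in 9 for Aqp4, 8 for Gja1 and 6 for Sparcl1. Over all tested genes in the EPL, section 1 was the highest for 51.8% and the lowest for 36.8%, so being the highest was the more common place. Among the tested astrocyte genes for glutamate and ion handling, listed below, section 1 was the lowest in the EPL for 9 of 10. Over the other 13 tested astrocyte genes it was the lowest for 6 and the highest for 5, and 1 section gives no test of such a difference. Section 1 was also the least like the others over all genes, with Pearson r of log2 CPM across genes of 0.828 and 0.829 with sections 2 and 3, which reached 0.917 between themselves. It also held the fewest counts in annotated regions, 344218 against 644694 and 501870. The part of depth and of the mix of regions in these r values was not tested.

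Within the layers, spots were divided into an outer and an inner part by position alone, and 7 of the 9 genes passed the filter there. Of 21 tests 0 passed in edgeR, the 1 tool run there, with 2 at an unadjusted p under 0.05. For all 1251 tested genes 0.0799% passed in the ONL, 0.56% in the GL and 0.16% in the EPL. The 2 were both in the ONL and ran in opposite directions. Gja1 measured 302, 538 and 353 CPM in the outer part and 112, 328 and 113 CPM in the inner part (log2 difference 0.99 ± 0.47, unadjusted p = 0.0353, adjusted p = 0.902), higher outside in 3 of 3 sections. Aqp4 measured 0, 269 and 70.5 CPM in the outer part and 112, 478 and 264 CPM in the inner part (-1.11 ± 0.53, unadjusted p = 0.0353, adjusted p = 0.902), lower outside in 3 of 3. Sparcl1 was nearly level between the parts of the ONL, with 1359, 2259.8 and 2187 CPM outside and 1460.3, 2209.6 and 2184 CPM inside. In the EPL it had 2013, 2942 and 2719.9 CPM outside and 1573, 2891 and 3317 CPM inside, higher outside in 2 of 3 sections.

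Relatives of the 9 genes gave mixed results. Of the aldolases, Aldoc was higher in all 3 outer layers, whereas Aldoa, the form of muscle and most tissues, had 2861, 865 and 686 CPM in the EPL and did not pass (-0.17, adjusted p = 0.544). In the S100 family 3 of 13 listed genes were tested. S100a5, known from olfactory sensory neurons, was higher in the ONL (3.15, adjusted p = 1.85e-23) and the GL (2.12, adjusted p = 2.24e-11), S100b in the ONL and the EPL, and S100a1, known from neurons and muscle, did not pass in the ONL (0.34, adjusted p = 0.735), the GL (0.33, adjusted p = 0.557) or the EPL (0.49, adjusted p = 0.315). Among the SPARC family, also 3 tested of 8, Sparc, a matrix-associated protein gene also of vessels, was higher in the ONL (0.80, adjusted p = 0.00387) at 902, 623 and 601 CPM, and Spock2 in the GL (0.67, adjusted p = 0.0124). Gja1 was the 1 connexin tested of 10 listed. Gjb6, connexin 30 of astrocytes, had 89 counts, with 27.5, 104 and 71.8 CPM in the EPL and 64.4, 127 and 91.0 CPM in the ONL. Of 11 genes of intermediate filaments and reactive astrocytes, Gfap was the 1 tested. Vim, the filament gene of immature and reactive glia, had 64.4, 212 and 364 CPM in the ONL and 55.0, 142 and 152 CPM in the EPL, and Lcn2 had no count in the outer layers.

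Of 12 astrocyte genes for glutamate and ion handling, 10 were tested, and 10 of 10 were higher in the EPL, 7 in the GL and 2 in the ONL. The shares of all tested genes that were higher there were 10.8%, 8.77% and 5.96%. The median log2 fold change of the 10 was 0.98, 0.60 and 0.43 in these layers, against the 0.11, 0.13 and 0.08 of all tested genes. Glul, which makes glutamine from glutamate, was higher in the EPL (1.04, adjusted p = 1.65e-15), the GL (0.63, adjusted p = 4.67e-05) and the ONL (0.68, adjusted p = 0.000209). Slc1a2, a glutamate transporter gene, was higher in the EPL (1.18, adjusted p = 3.46e-19) and did not pass in the ONL (-0.27, adjusted p = 0.447). Of 26 other astrocyte genes 13 were tested. Against the same shares, 9 were higher in the EPL, 2 in the GL and 3 in the ONL, with medians of 0.58, 0.30 and 0.17. Among these, the lipoprotein gene Apoe was higher in the ONL (0.96, adjusted p = 1.05e-10) and the GL (0.42, adjusted p = 0.0124), and Cpe, which encodes a peptide-processing carboxypeptidase, in the EPL (0.58, adjusted p = 3.62e-05). Of 10 genes of the endfoot and its dystrophin complex 3 were tested. Kcnj10, a potassium channel of astrocytes, was higher in the EPL (1.52, adjusted p = 5.55e-15) and the GL (0.70, adjusted p = 0.0121). Mlc1, a membrane protein gene of astrocyte endfeet, was higher in the EPL (0.68, adjusted p = 0.0231), and Utrn, which encodes utrophin, in the ONL (1.64, adjusted p = 3.53e-05).

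Genes that handle zinc, copper and iron were listed beside the metallothioneins, and 4 of 25 could be tested. Of their 36 tests over the 9 regions 0 passed in edgeR, with 5 at an unadjusted p under 0.05, and 1 in DESeq2, with 4 unadjusted, the call being Fth1 in the RMS (0.84, adjusted p = 0.00195). Fth1, the ferritin heavy chain, had 1403, 903 and 982 CPM in the EPL (-0.03, adjusted p = 0.933), and Sod1, a copper and zinc enzyme, 536, 246 and 335 CPM (0.14, adjusted p = 0.74).

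Markers of other cells moved with some of these results. In the ONL, 6 of 7 tested markers of olfactory ensheathing glia were higher, and their 12 listed genes summed to 9983 to 11661 CPM, against 3303 to 5233 CPM in the GL and 2806 to 3065 CPM in the EPL. Gldn of that list had no count in the 3 layers. Of the endothelial and mural markers, 2 of 3 tested were higher in the ONL, Sparc and Vtn, and Vtn is also 1 of the 6 ensheathing glia markers. The 15 endothelial and mural genes summed to 2293 to 3414 CPM in the ONL, 1609 to 1835 CPM in the GL and 1522 to 2201 CPM in the EPL. Mitral and tufted cell markers were higher for 5 of 6 tested in the EPL and 4 of 6 in the GL, and summed to 2304 to 5764 CPM in the EPL, 1997 to 4118 CPM in the GL and 1146 to 2641 CPM in the ONL. Oligodendrocyte markers were lower for 2 of 5 tested in the EPL, with Mbp and Mobp, and for the same 2 in the GL, and summed to 1856 to 3095 CPM in the EPL. Granule cell markers passed for 1 higher and 2 lower of 10 in the EPL. Of all tested genes, 10.8% were higher and 1.35% lower in the EPL, and 8.77% were higher and 2.15% lower in the GL. In the ONL 5.96% were higher. The 1 granule cell marker higher in the EPL is thus near the share of all genes. Microglial markers, with none tested, summed to 200.3 to 708 CPM in the ONL and 303 to 383 CPM in the EPL, with no count of Tmem119 in the EPL. Ependymal markers, with none tested, were near 0 in the ependymal cell zone itself, where 4 of the 6 listed markers found in the files had no count and the sum was 11.5 to 22.7 CPM. The part of these cells in the members' values was not tested.

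The genes most like each member were sought by Pearson correlation of log2(CPM + 10), centred on the section mean, as a description over sums that share libraries and depth. The nearest genes depended on the choices made: of 24 named over all 27 sums, 6 were shared without the RMS, over 24 sums, 5 with a correlation over the 9 region means and 14 with 50 in place of 10 CPM added. The nearest genes without the RMS were as follows, with r in parentheses. Gja1 was nearest to Rcn2 (0.89), Fabp7 (0.86), Paqr8 (0.85). Sparcl1 was nearest to Gnai2 (0.82), Sash1 (0.81), Qk (0.81). For Aldoc they were Hbb-bs (0.81), Glul (0.80), Fam107a (0.77). For S100b they were Mlc1 (0.76), Selenop (0.75), Dst (0.72). Aqp4 lay nearest to Gm15564 (0.78), Gpm6b (0.75), Gm12896 (0.72), and Gfap to Ids (0.77), Pak1 (0.70), Pea15a (0.70). Mt1 lay nearest to Rps3 (0.70), Mmd2 (0.67), Serpine2 (0.65), and Mt3 to Cpe (0.72), Kcnc1 (0.69), Cacnb4 (0.59). Between members the highest values were 0.667 for Gja1 with Aldoc, 0.604 for Gja1 with Sparcl1 and 0.603 for Aldoc with Mt1. Mt1 and Mt3, of the same chromosomal cluster, had 0.0218, and Mt2, which lies between them, was not compared.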

How the data were processed

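The authors deposited raw transcript counts per spot and gene, and a table of spot positions and regions, for each of 3 sections. The submitters' processing notes name mm10 as the build. The aligner, the counter, whether strand was used and whether the counts are unique molecular identifiers are not given in the sources used here. Gfap, Aqp4, S100b, Sparcl1 and Mt2 overlap an annotated gene on the other strand, whose reads could not be told apart if strand was not used. Gene positions come from GENCODE release 21.

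Pixel positions placed 100% of the entries in the region table. By spot name 97.1% of entries of sections 2 and 3 fell in the same region. Counts without a gene name (112, 497 and 405, or 0.0325%, 0.0764% and 0.0801%) stayed out. Sums were taken over each region of each section. The totals of 344260, 650393 and 505305 named counts limit the precision.

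The test was edgeR 4.0.16 (R 4.3.3; quasi-likelihood, TMM, filterByExpr with a minimum count of 10 by region, section as a block, threshold 0.05). Sums of 1 section share its tissue, and their deviations correlated at 0.4 on average (lowest 0.0364, 108 pairs), and at -0.176 across sections. All 9 genes are named whatever their values; of the other lists, the 2 genes with the most counts and up to 4 that passed in an outer layer could be named, as were the 3 nearest genes per tested member with at least 300 counts. Some named in addition were chosen after their values were seen. The members, lists and tests were chosen with earlier results of these data known. The pipeline was tested on simulated data. Other tools were DESeq2 1.42.0, blastn 2.17.0 (95% identity over 100 bases), Python 3.11.15, pandas 2.3.3, scipy 1.17.1 and matplotlib 3.10.9. Alternatives were RLE scaling, library sizes alone, no filter, no section block, each section left out, no RMS, joining by name, spots within 5 positions of another region left out, and DESeq2; library sizes alone for pairs and layer parts, and likeness without the RMS, were added after seeing the data.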

Additional observations from a re-analysis of the deposited data

Results flagged for a closer look

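Spots that the annotation places in no region lie outside the comparisons above, and they held counts of the 9 genes. In section 2 these were 29 of 5699 counts, or 5089 CPM (exact binomial 95% interval 3410.5 to 7300.0), beside 5079.9 CPM in the annotated regions. In section 3 they were 17 of 3435 counts, or 4949 CPM (2886 to 7912), beside 4846 CPM. Both lie above the 3 counts that a count of 0 allows, and their intervals include the annotated level of the same section. Section 1 had 0 of 42 counts in such spots, too few to compare.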

How the results depend on the processing

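Calls of the 9 genes depend most on the block and on single sections. No replicate block, with section left out of the model, gave 0 calls in place of 14 over all regions, of 6 in the EPL, of 4 in the GL, of 4 in the ONL and of 53 between pairs of regions, where calls over all genes were 111 in place of 2830. Leaving out 1 section at a time gave 5 to 14 calls over all regions, 2 to 6 in the EPL, 2 to 3 in the GL, 1 to 4 in the ONL and 11 to 44 between pairs, and 0 to 0 between parts of layers. With library sizes alone, calls in the ONL were 2 and those between pairs 35. With no filter on low counts, the ONL had 1. The 1 direction that reversed was Aqp4 in the ONL, at -0.022 without section 2, in a range of -0.022 to 1.03 with 1 section left out. Lower levels in a region, 0 calls above, gave 1 call with RLE scaling, with library sizes alone and without section 1, and 2 with no filter and without the RMS. The cause was not tested. Over 31 named results and 293 alternatives, 204 kept direction and side of the threshold, 83 kept direction and lost the call, 5 kept direction and gained a call, and 1 reversed. Between parts of layers 0 calls were made in each alternative run. Depth limits the RMS most, and next the GCL-E, IPL and M/T.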
